A study of Mus musculus with 10 samples.

Results

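The data describe 10 genes that restrain Wnt signalling or respond to it: Dkk1, Dkk2, Dkk3, Sfrp1, Sfrp2, Sfrp4, Wif1, Nkd1, Nkd2 and Axin2. They were chosen by gene symbol, each through the probe set with exactly 1 annotated symbol and the highest mean over all arrays, and all 10 were found among the 19938 genes measured, each with a single such probe set. RNA came from osteoblastic lineage cells (OBCs), a stromal fraction sorted from collagenase-digested bone, of 5 BA mice and 5 age-matched control mice, with 1 array per mouse. BA mice are C57BL/6 animals of the genotype Scl-tTA::TRE-BCR/ABL, in which a transactivator under the Scl promoter, active in blood stem and progenitor cells, switches on the BCR/ABL oncogene once doxycycline is removed. Control mice are labelled only as control, on the same C57BL/6 background, and the labels do not say which transgene, if any, they carry. All mice, BA and control, were taken off doxycycline at 5 weeks of age and their bones were collected 5 to 6 weeks later, when BA mice had a myeloproliferative neoplasm. The sort used antibodies to CD51, CD45, Sca-1, CD31 and blood lineage antigens, and RNA of 500 to 2300 cells per sample was amplified. The comparison asked how the expression of these genes in the bone-lining stroma differs in the leukemic marrow.

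Wnt proteins are secreted signals that bind a Frizzled receptor together with the co-receptor LRP5 or LRP6, which stops a cytoplasmic complex built on Axin from destroying beta-catenin. In bone this pathway drives osteoblast formation, and secreted antagonists hold it back either by occupying LRP5 and LRP6 (as the Dickkopf proteins Dkk1 and Dkk2 can) or by binding the Wnt protein itself (the secreted Frizzled-related proteins, Sfrp, and Wif1). Inside the cell, Nkd1, Nkd2 and Axin2 act as brakes, and Axin2 is itself switched on by beta-catenin in many tissues, so that its RNA is widely read as a gauge of the pathway.

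None of the 10 genes passed the threshold in the comparison of BA with control cells (limma, Benjamini-Hochberg adjusted over all genes, adjusted p between 0.459 and 0.734 for the 10). Of all genes 0.00502% passed, which is 1 gene. Means were lower in BA cells for 8 of the 10 and higher for 2, Wif1 and Nkd2. Over all genes 62.1% were lower and 37.9% higher in BA cells, and the median difference (BA minus control, log2) was -0.27 for the 10 genes and -0.06 for all genes. Nkd1, Dkk1, Sfrp4 and Nkd2 had an unadjusted limma p under 0.05, the first 3 lower and Nkd2 higher, where 9.4% of all genes met that mark, 5.27% lower and 4.13% higher. Of the 10 genes, 2 met it without BA replicate 5, control replicate 2 or control replicate 3. The 10 genes were chosen with earlier results of these data known, so their share beside that of all genes is no independent test. The split of all genes (1051 lower, 824 higher) turned to 369 lower and 650 higher among the 9962 brighter genes, which hold 9 of the 10 and whose median difference was -0.002. The arrays of the groups overlapped for all 10 genes, while they were fully apart for 1.67% of all genes. In such bulk samples, fewer cells of a type and less RNA per cell cannot be told apart.

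**Figure D1:**
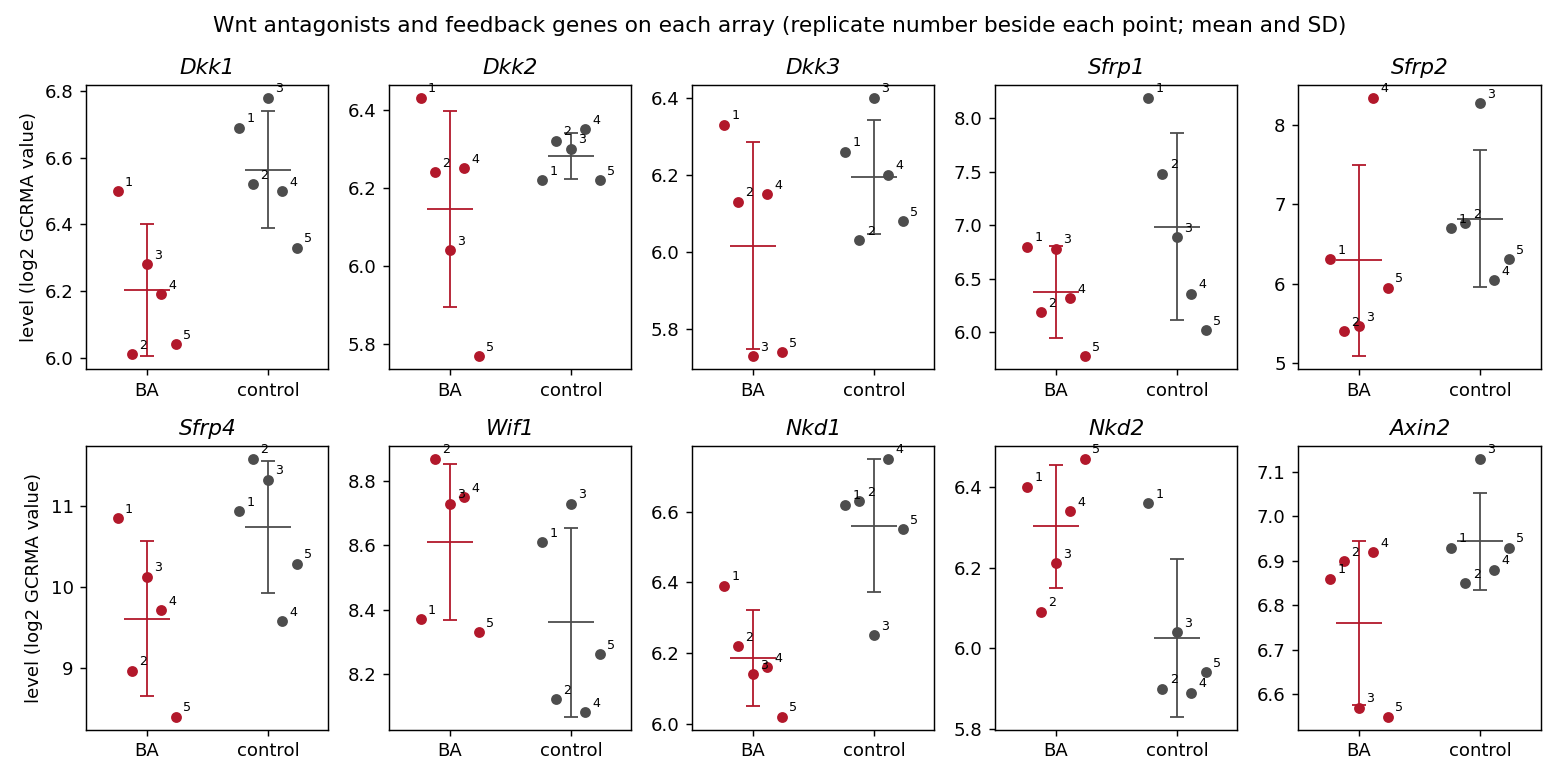
Levels (log2 GCRMA value, y axis, a separate scale in each panel) of the 10 genes on each array, with BA arrays on the left and control arrays on the right; points carry the replicate number and bars give mean and SD (n = 5 each). The groups overlap in every panel; for Nkd1, 4 control arrays lie above all BA arrays, and for Nkd2, 4 control arrays lie below all BA arrays.

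**Figure D2:**
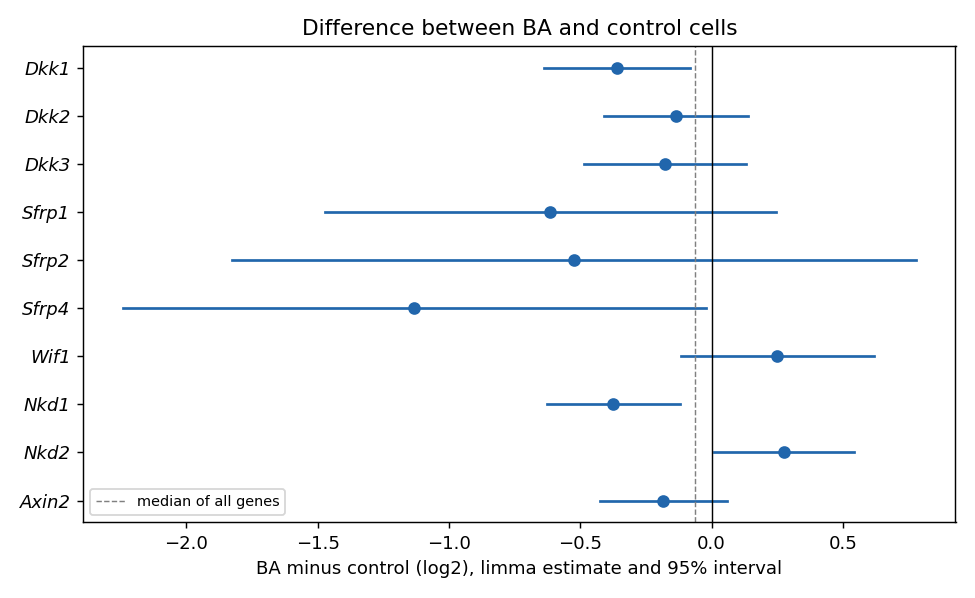
Difference between BA and control cells (x axis, log2, BA minus control) for each of the 10 genes, with the limma estimate as a point and its 95% interval as a line; the dashed line marks the median of all genes at -0.06. The intervals of Dkk1, Sfrp4, Nkd1 and Nkd2 leave out 0 before any adjustment for the number of genes tested, and those of Sfrp1, Sfrp2 and Sfrp4 are the widest.

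Promoter sequences were available for 7 of the 10 genes in a RefSeq-derived table of build GRCm38.p6, each covering 250 bases before to 50 bases after the gene's start; Dkk3, Sfrp1 and Sfrp4 are named only. The windows were searched on both strands for 4 forms of the core bound by TCF and LEF, the factors that carry beta-catenin to DNA: CTTTGAA as the first, CTTTGAT as the second, CTTTGTA as the third and CTTTGTT as the fourth. These letters were found in 1 of the 7 windows, that of Dkk1, and in 16.9% of the 32851 windows of that length in the table. The Dkk1 window held the first form 117 bases and the fourth 98 bases before the start, both on the strand of the gene, with 12 bases between them. The cores do not overlap. The windows of Axin2, Dkk2, Nkd1, Nkd2, Sfrp2 and Wif1 held none of these letters, and their G and C content and that of Dkk1 lay between 57.7% and 70.0%. Bases outside the windows were not searched. The CG dinucleotide occurred 31 times in the window of Axin2 and 6 times in that of Nkd1, the highest and lowest of the 7. The windows of the 3 genes with an entry and an unadjusted p under 0.05 are shown, 5′ to 3′ on the strand of the gene, with the cores in capitals. Dkk1 lies on the minus strand at chr19:30549447-30549746, Nkd1 on the plus strand at chr8:88527383-88527682 and Nkd2 on the minus strand at chr13:73847582-73847881.
Dkk1: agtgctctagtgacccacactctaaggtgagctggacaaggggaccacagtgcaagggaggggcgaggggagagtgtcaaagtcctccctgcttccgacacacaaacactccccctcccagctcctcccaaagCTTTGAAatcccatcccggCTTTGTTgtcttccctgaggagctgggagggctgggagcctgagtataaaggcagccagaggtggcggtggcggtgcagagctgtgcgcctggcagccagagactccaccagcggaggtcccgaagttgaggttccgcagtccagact
Nkd1: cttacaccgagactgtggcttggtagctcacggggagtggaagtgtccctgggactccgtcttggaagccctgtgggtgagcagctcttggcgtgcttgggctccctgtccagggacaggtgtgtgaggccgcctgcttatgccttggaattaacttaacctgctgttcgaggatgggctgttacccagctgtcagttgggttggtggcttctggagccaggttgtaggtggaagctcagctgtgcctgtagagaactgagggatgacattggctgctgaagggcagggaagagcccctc
Nkd2: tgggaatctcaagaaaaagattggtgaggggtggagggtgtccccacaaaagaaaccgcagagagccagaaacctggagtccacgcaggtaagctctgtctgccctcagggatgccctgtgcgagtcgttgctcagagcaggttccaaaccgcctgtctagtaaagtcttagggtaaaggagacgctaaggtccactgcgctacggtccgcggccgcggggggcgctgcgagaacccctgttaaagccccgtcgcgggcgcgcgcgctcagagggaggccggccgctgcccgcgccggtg

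Among the Dickkopf genes, Dkk1 blocks LRP5 and LRP6 and is a strong inhibitor of bone formation, and its promoter window is the one with both cores. It read 6.50, 6.01, 6.28, 6.19 and 6.04 on BA replicates 1 to 5, against 6.69, 6.52, 6.78, 6.50 and 6.33 on control replicates 1 to 5. Only BA replicate 1 reached into the control range, and the other 4 BA arrays lay below the lowest control array. The means were 6.20 ± 0.20 in BA cells and 6.56 ± 0.18 in control cells (SD, n = 5 each), a difference of -0.36 ± 0.13 (SE), or 1.28-fold lower. An exact permutation test over the 252 splits of the arrays gave an unadjusted two-sided p of 0.0238, where 0.00794 is the smallest it can give, and the adjusted p over all genes was 0.483 (limma). The unadjusted limma p stayed under 0.05 without each of the 10 arrays in turn.

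Dkk2, which acts on LRP6 and in mice is needed for the last steps of osteoblast mineralisation, read 6.43, 6.24, 6.04, 6.25 and 5.77 on BA replicates 1 to 5, against 6.22, 6.32, 6.30, 6.35 and 6.22 on control replicates 1 to 5. The control arrays were tightly grouped, and the BA arrays lay on both sides of them. The difference of -0.14 ± 0.12 (SE) was -0.042 without BA replicate 5. Dkk3, a divergent Dickkopf that does not act through LRP5 and LRP6 in the same way, read 6.33, 6.13, 5.73, 6.15 and 5.74 on BA replicates 1 to 5, against 6.26, 6.03, 6.40, 6.20 and 6.08 on control replicates 1 to 5. BA replicates 3 and 5 were lower than every control array and the other 3 BA arrays lay within the control range. Its difference was -0.18 ± 0.14 (SE), and -0.11 when one or the other of these 2 arrays was left out. The adjusted p was 0.677 for Dkk2 and 0.636 for Dkk3 (limma).

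The Sfrp genes encode secreted proteins with a Wnt-binding domain like that of the Frizzled receptors, and their 3 genes here differed most from array to array. Sfrp4, whose loss thins cortical bone in mice and humans, read 10.85, 8.97, 10.13, 9.72 and 8.40 on BA replicates 1 to 5, against 10.94, 11.59, 11.33, 9.58 and 10.29 on control replicates 1 to 5. Control replicates 1 to 3 lay above all BA arrays, while control replicates 4 and 5 lay within the BA range. The means were 9.61 ± 0.96 in BA cells and 10.75 ± 0.82 in control cells (SD, n = 5 each), a difference of -1.13 ± 0.50 (SE), or 2.19-fold lower. This was the largest difference among the 10 genes. Its exact two-sided permutation p was 0.0794 before adjustment, and its adjusted limma p was 0.526. The unadjusted limma p, under 0.05 with all arrays, stayed so in 4 of the 10 cases with 1 array left out.

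Sfrp1, a Wnt-binding antagonist whose loss raises trabecular bone mass in mice, read 6.80, 6.19, 6.78, 6.32 and 5.78 on BA replicates 1 to 5, against 8.19, 7.48, 6.89, 6.36 and 6.02 on control replicates 1 to 5. Control replicates 1, 2 and 3 were above all BA arrays and control replicates 4 and 5 were not, the same division of the control arrays as for Sfrp4. Its difference of -0.61 ± 0.39 (SE) was -0.31 without control replicate 1. Sfrp2 read 6.31, 5.40, 5.46, 8.34 and 5.95 on BA replicates 1 to 5, against 6.70, 6.76, 8.27, 6.04 and 6.31 on control replicates 1 to 5. BA replicate 4 and control replicate 3 stood far above the other 8 arrays, which lay between 5.40 and 6.76. The difference was -0.52 ± 0.59 (SE). It became -1.04 when BA replicate 4 was left out and -0.16 when control replicate 3 was. The adjusted p was 0.584 for Sfrp1 and 0.734 for Sfrp2 (limma).

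Wif1, which captures Wnt proteins through its own WIF domain, was the one secreted antagonist among the 10 genes with a higher mean in BA cells. It read 8.37, 8.87, 8.73, 8.75 and 8.33 on BA replicates 1 to 5, against 8.61, 8.12, 8.73, 8.08 and 8.26 on control replicates 1 to 5. Control replicates 2, 4 and 5 lay below all BA arrays, and control replicates 1 and 3 lay within the BA range. The means were 8.61 ± 0.24 in BA cells and 8.36 ± 0.29 in control cells (SD, n = 5 each), a difference of 0.25 ± 0.17 (SE), or 1.19-fold, with an adjusted p of 0.592 (limma).

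Of the intracellular brakes, Nkd1, which binds Dishevelled and is itself induced by Wnt signalling in several tissues, had the smallest p of the 10 genes. It read 6.39, 6.22, 6.14, 6.16 and 6.02 on BA replicates 1 to 5, against 6.62, 6.63, 6.25, 6.75 and 6.55 on control replicates 1 to 5. All BA arrays but replicate 1 lay below the lowest control array, and control replicate 3 was the single control array inside the BA range. The means were 6.19 ± 0.14 in BA cells and 6.56 ± 0.19 in control cells (SD, n = 5 each), a difference of -0.37 ± 0.11 (SE), or 1.30-fold lower. The exact two-sided permutation p was 0.0159 before adjustment, and the adjusted p over all genes 0.459 (limma). As for Dkk1, the unadjusted limma p stayed under 0.05 without each of the 10 arrays in turn.

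Nkd2, the paralogue that also binds Dishevelled, read 6.40, 6.09, 6.21, 6.34 and 6.47 on BA replicates 1 to 5, against 6.36, 5.90, 6.04, 5.89 and 5.94 on control replicates 1 to 5. Control replicate 1 was level with the BA arrays, and the other 4 control arrays lay below all of them. The means were 6.30 ± 0.15 in BA cells and 6.03 ± 0.20 in control cells (SD, n = 5 each), a difference of 0.28 ± 0.12 (SE), or 1.21-fold higher. The exact two-sided permutation p was 0.0476 before adjustment, and the adjusted p was 0.518 (limma). With 1 array left out at a time, the unadjusted limma p stayed under 0.05 in 3 of 10 cases. The 2 Nkd genes thus had means on opposite sides of control. The difference between them was not tested.

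Axin2, the scaffold of the destruction complex and the general feedback target, read 6.86, 6.90, 6.57, 6.92 and 6.55 on BA replicates 1 to 5, against 6.93, 6.85, 7.13, 6.88 and 6.93 on control replicates 1 to 5. BA replicates 3 and 5 lay below all control arrays, while BA replicates 1, 2 and 4 lay among control replicates 1, 2, 4 and 5. The means were 6.76 ± 0.18 in BA cells and 6.94 ± 0.11 in control cells (SD, n = 5 each). The difference of -0.18 ± 0.11 (SE) had a 95% interval from -0.43 to 0.06 before adjustment and an adjusted p of 0.569 (limma).

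The arrays themselves differed in how they stood across the 10 genes. BA replicate 5 held the lowest value of all 10 arrays for 5 genes, Dkk2, Sfrp1, Sfrp4, Nkd1 and Axin2, and the highest for Nkd2, and 9 of the 10 genes lay below their control mean on it. On BA replicate 1 that number was 5, and its median deviation from the control means was -0.03, against -0.52 on BA replicate 5. Control replicate 3 held the highest value for Dkk1, Dkk3 and Axin2. BA replicate 5 was also the array with the highest level of pan-haematopoietic markers. The mean level of 6 pan-haematopoietic markers was 8.55 there, 5.78 to 6.28 on the other BA arrays and 5.42 to 6.30 on control arrays, and Ptprc (CD45) read 9.29 on it and 5.54 to 5.90 on the other 9 arrays. Without BA replicate 5 the differences were -0.32 for Dkk1, -0.33 for Nkd1, -0.83 for Sfrp4, 0.23 for Nkd2 and -0.13 for Axin2.

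**Figure D3:**
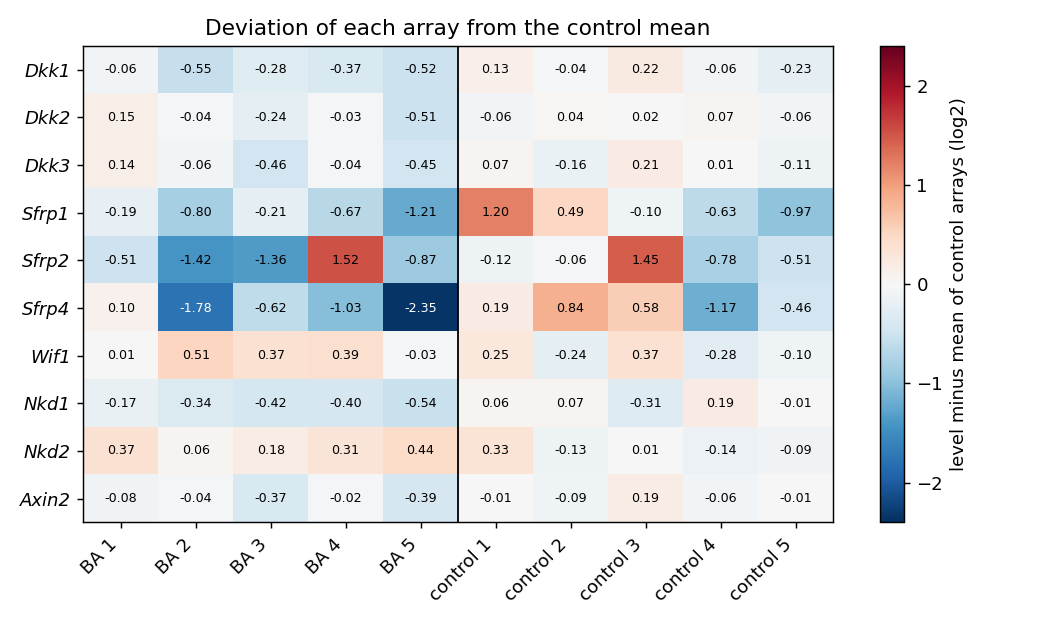
Level of each of the 10 genes (rows) on each array (columns, BA left of the line, control right) minus that gene's mean over the control arrays (log2, red above and blue below, values printed). The Sfrp rows carry the strongest colours, from -2.35 for Sfrp4 on BA replicate 5 to 1.52 for Sfrp2 on BA replicate 4, and the column of BA replicate 5 is blue in 9 of 10 rows.

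The levels of Sfrp4 followed those of Lepr and other stromal genes from array to array. Among the 9962 genes with a mean above the median of all genes, those with the highest Pearson r to Sfrp4 over the 10 arrays were Vcam1, an adhesion molecule of marrow stroma (0.945), Lepr, the leptin receptor of perivascular stroma (0.943), and Igfbp5, a binding protein of insulin-like growth factors (0.943). Lepr read 8.86, 6.92, 7.51, 7.67 and 5.97 on BA replicates 1 to 5, against 10.13, 10.63, 9.60, 8.22 and 8.28 on control replicates 1 to 5. As for Sfrp4, the highest BA array was replicate 1, the lowest was replicate 5, and control replicates 4 and 5 were the lowest control arrays. These values come from the same arrays and share their cell make-up, so the likeness is a description.

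All 7 of the stromal progenitor markers examined (Lepr, Cxcl12, Adipoq, Kitl, Ebf3, Foxc1 and Pdgfra) had lower means in BA cells, and none of the 7 passed the threshold over all genes. Their mean level was between 6.57 and 8.23 on BA arrays and between 7.69 and 9.84 on control arrays. With that mean as a covariate in the limma fit, the difference was -0.0025 ± 0.38 (SE) for Sfrp4. It was 0.34 ± 0.23 for Sfrp1 and 0.043 ± 0.75 for Sfrp2 (SE). For Nkd1 it was -0.34 ± 0.16, for Nkd2 0.37 ± 0.16 and for Dkk1 -0.17 ± 0.14 (SE). This covariate was chosen after seeing the data and holds Lepr, one of the genes most like Sfrp4, so the fit is no independent test of Sfrp4. The covariate was itself lower in BA cells, so this fit splits a shared difference between the 2 terms, and it says nothing of the order of events. The 6 pericyte and smooth muscle markers had a mean level of 7.07 to 7.89 on BA arrays and 8.13 to 8.83 on control arrays. With their mean as a covariate the differences were -1.14 ± 0.88 for Sfrp4, -0.13 ± 0.18 for Nkd1, -0.31 ± 0.22 for Dkk1 and 0.10 ± 0.20 for Nkd2 (SE). In that fit 0 of the 10 genes had an unadjusted limma p under 0.05. This mean was lower on every BA array than on any control array, so this fit too splits a shared difference. The SEs of the 10 genes were wider than without the covariate, where they were 0.50 for Sfrp4 and 0.11 for Nkd1.

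**Figure D4:**
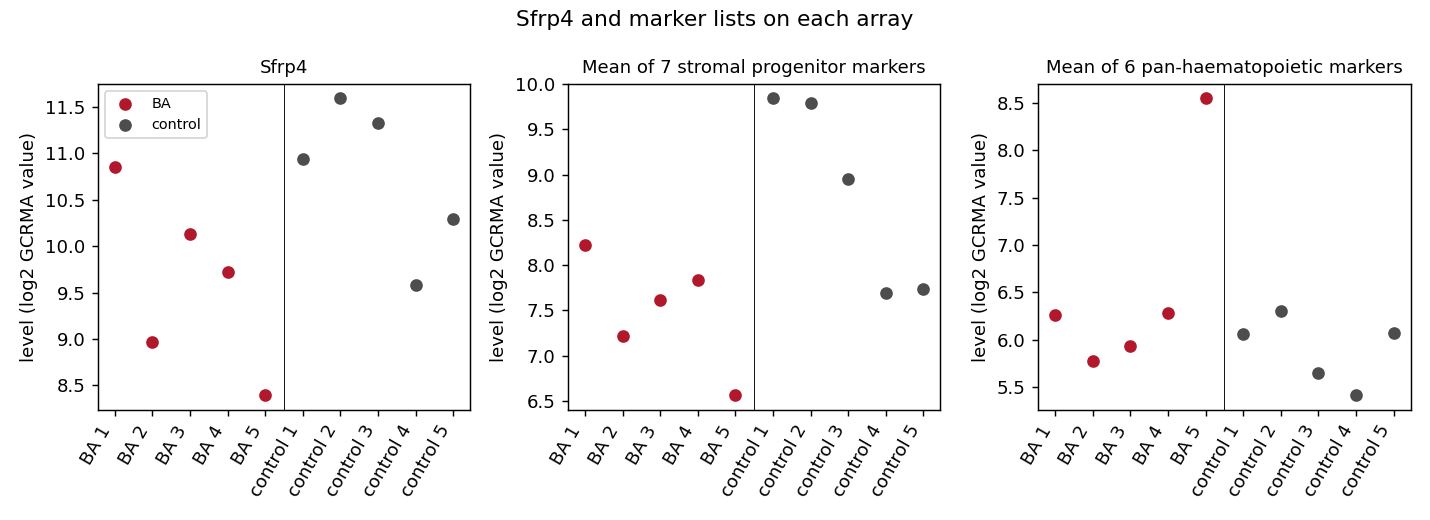
Level (log2 GCRMA value, y axis) on each array (x axis, BA in red on the left, control in grey on the right) of Sfrp4, of the mean of 7 stromal progenitor markers and of the mean of 6 pan-haematopoietic markers. Sfrp4 and the progenitor mean are lowest on BA replicate 5, where the pan-haematopoietic mean is highest at 8.55, and both are higher on control replicates 1 to 3 than on control replicates 4 and 5.

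Other genes led by the same measure for Sfrp1, Sfrp2 and Axin2. Sfrp1 was most like Lamb1, a laminin chain of basement membranes (r = 0.934), Amy1, an amylase (0.932), and Calr, a chaperone of the endoplasmic reticulum (0.925). Sfrp2 was most like Dzip1 (r = 0.930), the transcription factor gene Foxp1 (0.901) and Polr2j, a subunit of RNA polymerase II (0.866). Polr2j shared its pattern of high values on BA replicate 4 and control replicate 3, at 8.83 and 8.66, against 6.02 to 7.07 on the other arrays. Axin2 was most like Dmrtc2 (r = 0.954), Dmp1, a matrix protein of osteocytes (0.934), and the Wnt ligand gene Wnt5b (0.931). Each r is over 10 arrays and among the 3 highest of the genes searched, so it describes these arrays and no more.

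By the level of Xist, the long RNA that silences one X chromosome in females, the BA group held 2 low-Xist and 3 high-Xist mice and the control group 3 low-Xist and 2 high-Xist mice. Control replicates 1 to 3, on which Sfrp1 and Sfrp4 were high, were the low-Xist controls. Within the low-Xist arrays Sfrp4 averaged 10.49 in BA and 11.29 in control cells, and within the high-Xist arrays 9.03 in BA and 9.94 in control cells, differences of -0.80 and -0.91. For Sfrp1 these differences were -0.73 and -0.09, and for Sfrp2 -1.36 and 0.39. For Dkk1 they were -0.27 and -0.34, for Nkd1 -0.24 and -0.52, and for Axin2 -0.26 and -0.12. With Xist as a covariate the differences were -0.85 for Sfrp4, -0.30 for Dkk1, -0.38 for Nkd1 and 0.30 for Nkd2.

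The rest of the pathway was examined through 5 lists, with 106 of 107 genes measured and 0 past the threshold in either direction (limma, adjusted over all genes). An unadjusted p under 0.05 was met by 10 of the 106 (5 higher and 5 lower), or 9.43%, close to the 9.4% of all genes. Of 22 other antagonists, 17 had lower and 5 higher means in BA cells, with a median difference of -0.10. Notum, an enzyme that strips the lipid from Wnt proteins, averaged 6.94 ± 0.42 in BA and 6.40 ± 0.28 in control cells (SD, n = 5 each), a difference of 0.54 ± 0.21 (SE). Igfbp4, a growth factor binding protein that also inhibits Wnt receptors, read 7.18 to 7.55 on BA arrays, against 8.38, 9.21, 8.80, 7.30 and 7.34 on control replicates 1 to 5. Its high values were on control replicates 1 to 3, as for Sfrp1 and Sfrp4. Draxin, a secreted LRP6-binding inhibitor, differed by -0.33 ± 0.14 (SE).

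Of 17 target genes measured, 9 had higher and 8 lower means in BA cells, with a median difference of 0.03. Enc1, an actin-binding protein gene, averaged 8.26 ± 0.64 in BA and 7.16 ± 0.25 in control cells (SD, n = 5 each), a difference of 1.10 ± 0.28 (SE, limma adjusted p = 0.384). Cd44, the hyaluronan receptor, read 9.46, 9.47, 9.90, 8.12 and 9.90 on BA replicates 1 to 5, against 8.92, 8.55, 7.54, 7.87 and 8.40 on control replicates 1 to 5. BA replicate 4 lay within the control range and the other 4 BA arrays above it, a difference of 1.11 ± 0.37 (SE). The differences were 0.42 ± 0.16 for Id2, an inhibitor of differentiation, and -0.56 ± 0.25 (SE) for Fgf18, a growth factor of cartilage and bone.

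Of 18 receptors, 13 had lower and 5 higher means, with a median of -0.08. Lgr4, the receptor through which R-spondins strengthen Wnt signalling, had the largest difference of the 18. It read 6.96, 6.90, 6.86, 8.50 and 7.57 on BA replicates 1 to 5, against 6.38, 5.90, 6.19, 6.37 and 5.18 on control replicates 1 to 5. Every BA array lay above every control array, while the groups were apart for 1.67% of all genes. The difference of 1.35 ± 0.35 (SE), or 2.56-fold higher, did not pass over all genes (limma adjusted p = 0.384). Fzd7 and Fzd3, which are Wnt receptors, differed by -0.36 ± 0.17 and -0.38 ± 0.18 (SE). Fzd3 was dim, at 4.36 to 5.27 on all arrays, below the array medians of 5.91 to 6.02. Of 25 ligands, R-spondins and secretion factors, 19 had lower and 6 higher means, with a median of -0.07. Wnt7b, a ligand that promotes bone formation in mice, differed by -0.29 ± 0.12 (SE), and Rspo2, an R-spondin, by -0.50 ± 0.23 (SE). The 24 intracellular components had a median difference of 0.07, and 0 of them had an unadjusted p under 0.05. Tnks2, a tankyrase that marks Axin for destruction, had the smallest p among them, with a difference of -0.58 ± 0.33 (SE).

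**Figure D5:**
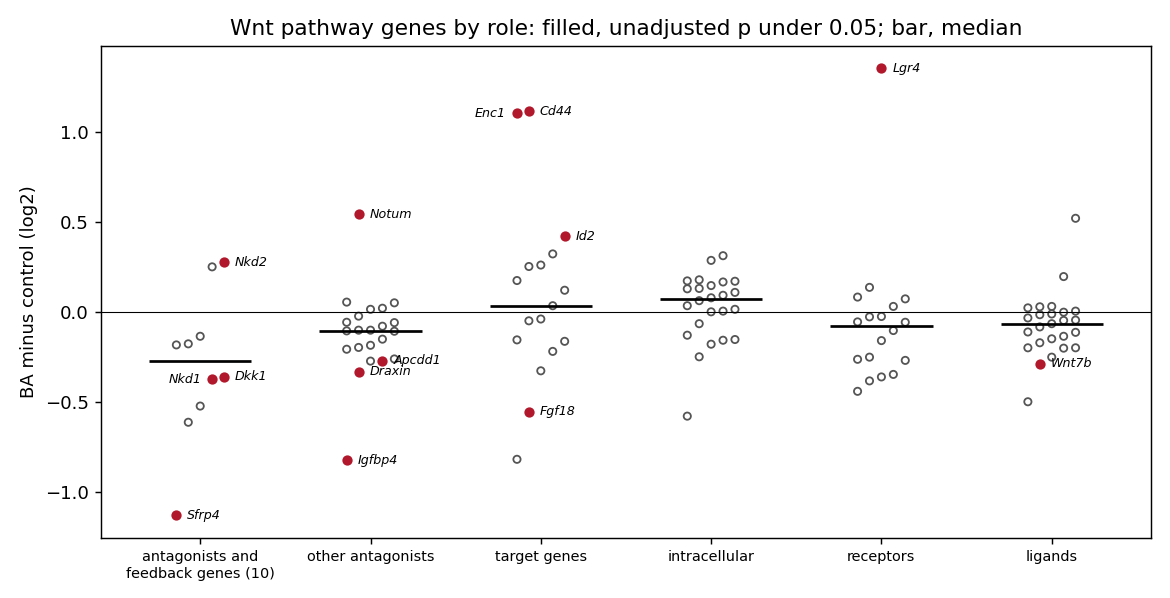
Difference between BA and control cells (y axis, log2, BA minus control) for the 10 antagonists and feedback genes and for 106 other Wnt pathway genes in 5 lists by role (x axis). Filled points had an unadjusted limma p under 0.05, open points did not, and bars give the median of each list, from -0.27 for the 10 genes to 0.07 for the intracellular components.

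As to the sorted cells, all 6 measured osteoblast markers (Sp7, Alpl, Col1a1, Col1a2, Ibsp and Ifitm5) and 7 of 8 chondrocyte markers had a mean level in the highest 25% of all genes, and 0 of 6 endothelial markers did. So did 6 of 8 neutrophil markers, whose mean level was 8.81 in BA and 8.11 in control cells. Between the groups, Col1a1 and Col1a2, the chains of bone collagen, differed by -1.25 ± 0.34 and -1.16 ± 0.31 (SE), and Ifitm5 by -0.58 ± 0.25, while Sp7, Alpl and Ibsp differed by -0.01 to 0.47. The BA arrays lay below every control array for Col1a2 and Ifitm5, while the groups were apart for 1.67% of all genes. All 4 osteocyte markers had lower means in BA cells, with Phex at -1.12 ± 0.44, Dmp1 at -0.42 ± 0.17, Mepe at -0.30 ± 0.23 and Sost at -0.08 ± 0.12 (SE). The part of these markers in the differences of the 10 genes was not tested. None of the osteoblast and osteocyte markers passed over all genes (limma). Runx2, Bglap and Spp1 were not measured by a probe set with a single symbol. Array medians lay between 5.91 and 6.02, and Dkk1, Dkk2, Dkk3, Nkd1 and Nkd2 read between 5.73 and 6.78 on all arrays, near those medians. Most arrays read Sfrp2 and Sfrp1 in a similar range. Sfrp2 was at 5.40 to 6.76 on all but BA replicate 4 and control replicate 3. Sfrp1 was at 5.78 to 6.89 on all but control replicates 1 and 2. No detection calls were used, and precision is limited by the 5 arrays per group.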

How the data were processed

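Expression was measured on Affymetrix mouse Gene ST 1.0 arrays in 10 samples, 1 per mouse. The values are the log2 values that the authors deposited, per probe set, made with GCRMA per the submitters' processing notes (no version is named); that they are log2 is taken from their range, 1.21 to 13.7, and from the method. Of 35557 probe sets, 21789 had 1 gene symbol, giving 19938 genes, each represented by its brightest probe set; 19856 had a gene ID in the RefSeq table of GRCm38.p6. The comparison of BA with control used limma 3.58.1 under R 4.3.3 (lmFit, eBayes, two-sided, no covariate), with p-values adjusted over all genes and a threshold of 0.05. Single genes also had an exact permutation test of the difference in means. The 10 genes and the pathway and marker lists were chosen with earlier results of these data known. Beyond the 10 genes, the text names up to 4 genes per pathway list with the smallest p, markers, and the 3 genes most like (by Pearson's r) each of Axin2, Sfrp1, Sfrp2 and Sfrp4, the last 3 having the largest SD over all arrays. Protein sequences were not used here. The script was tested on simulated data. The labels do not say whether equal replicate numbers pair the mice, and the comparison did not pair them. Deviations from group means correlated above 0.1 in 1 of 5 same-numbered pairs, which does not settle whether the mice were paired. Alternatives covered the replicate block, normalization, dim genes, variance settings, array weights, probe sets, thresholds, covariates and leaving out each array; the stromal progenitor covariate was chosen after seeing the data.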

Additional observations from a re-analysis of the deposited data

Results flagged for a closer look

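In 30 Wnt pathway genes, each group of 5 arrays was examined for a highest or lowest array far from the others (a gap over 0.71 of the group's range, which chance gives in about 1 in 20 groups), and 3 of 60 groups held one. Axin2 read 7.13 on control replicate 3 and 6.85 to 6.93 on the other control arrays. Cd44 read 8.12 on BA replicate 4 and 9.46 to 9.90 on the other BA arrays. Id2 read 9.44 on BA replicate 1 and 9.87 to 10.04 on the other BA arrays.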

How the results depend on the processing

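None of the 10 genes passed the adjusted threshold under any of the 23 alternatives (lowest limma adjusted p = 0.327). Of 229 differences, 225 kept their sign. Some of these could not change it, since the alternative left the estimates of the 10 genes as they were. This held for the looser threshold, the fold minimum, the replicate block, the variance settings, the brighter genes and the mean of probe sets. The sign turned for Dkk2 (0.17) and Dkk3 (0.052) with the pericyte and smooth muscle covariate. It also turned for Sfrp1 (0.34) and Sfrp2 (0.043) with the stromal progenitor covariate, where Sfrp4 was at -0.0025. The cause was not tested. The number of the 10 with an unadjusted p under 0.05 was 4, and became 2 with the pan-haematopoietic covariate, 0 with the pericyte and smooth muscle covariate (where the SEs of the 10 genes were wider), 1 with the stromal progenitor covariate, 1 with a fold minimum of 2 (Sfrp4) and 2 to 4 without each array. The number of all genes past the adjusted threshold was 1, and became 0 when only the brighter genes (mean above the median) were tested, 0 with each of these 3 covariates, 2 with the Xist covariate and 0 to 13 without each array, highest without BA replicate 4. At an unadjusted p under 0.05 the 1875 genes became 1019 among the brighter genes (fewer genes were tested), 293 with the fold minimum, 1043 with the pericyte and smooth muscle covariate and 1198 with the stromal progenitor covariate. With the replicate number as a block, 0 genes passed and 4 of the 10 had an unadjusted p under 0.05, all lower, with Sfrp1 in and Nkd2 out; the split of all genes was then 921 higher and 748 lower. Of 10 arrays, 3 correlated best with their own number among the 5 arrays of the other group, which does not settle whether the mice were paired. Signal over background could not be judged without scanner files.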
